A study of Mus musculus with 6 samples.

Results

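The 10 transcription factor genes described here are Etv1, Etv4 and Etv5 of the PEA3 group of ETS factors, Fos, Fosl1 and Junb of AP-1, Egr1, Egr2 and Egr3 of the EGR family, and Myc. They were chosen by symbol as genes known to respond to the kinase ERK, with earlier results of these data known. All 10 were found among the 26264 gene symbols that every one of the 6 libraries lists. The data are bulk RNA-seq gene counts of immortalized mouse brown preadipocytes and of the adipocytes made from them. The cells came from the stromal vascular fraction of wild-type Bl6N mice and carry the SV40 large T antigen, introduced by a retrovirus with puromycin selection. All 6 cultures shared these features. At about 80% confluency, 3 cultures received 5.5 nM FGF8 for 48 h and 3 were left untreated (the methods speak of vehicle), and cells were harvested at day 0, directly after the pretreatment, or at day 3 or day 9 of differentiation without FGF8. The labels give the later time points as D3 and D7. The paper counts days from the end of FGF8 and calls them day 3 and day 9. D7 is therefore read here as 7 days after the end of 2 days of induction, whereas D3 is read as day 3 itself. Induction was with insulin, T3, IBMX, dexamethasone, indomethacin and rosiglitazone, after which insulin, T3 and rosiglitazone stayed in the medium. The comparison asks how the FGF8 pretreatment changed the transcripts of these factors in preadipocytes, and which differences were seen during differentiation.

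FGF8 binds FGF receptors, which signal through RAS, RAF and MEK to ERK. Active ERK enters the nucleus and phosphorylates ETS factors that act with serum response factor (SRF) at immediate-early genes such as Fos, Egr1 and Junb, whose transcripts rise within minutes and then decline as dual-specificity phosphatases and Sprouty proteins dampen the pathway. Etv1, Etv4 and Etv5 respond more slowly and are widely used as a readout of sustained FGF signaling. In preadipocytes, Fos, Egr2 and other immediate-early factors are also part of the early response to an adipogenic cocktail, since cAMP, glucocorticoid and insulin act on the same genes.

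Each condition is 1 library, so differences between the treatments at a given day have no replicate check. Values are counts divided by the size factors of DESeq2 (normalized counts). Fold changes are differences of log2(normalized count + 1), with a 95% exact (Clopper-Pearson) interval that covers counting error only and not the spread between cultures. Libraries held 16403254 to 38551551 counts. The 6 preadipocyte markers (Pdgfra, Pdgfrb, Dlk1, Ly6a, Cd34 and Col1a1) were each above 20 normalized counts in every library. The 7 adipocyte markers summed to 411 and 1672 normalized counts at day 0 and to between 218286 and 571361 later. Of the macrophage markers, Adgre1 and C1qa had 0 counts in all libraries and the 6 together summed to at most 146 normalized counts. In each untreated library 2 of the 6 were at 20 or more, and in each FGF8 library 1 was. Of the 4 muscle markers (Myod1, Myf5, Myog and Des), Myod1 and Myf5 had 0 counts throughout. The 4 together summed to 7.34 normalized counts in untreated and 8.96 in FGF8-treated cells at day 0. At day 9 they summed to 651 and 1178, with 1 of the 4 at 20 or more in each library.

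The PEA3 factors, which bind GGAA-type sites and serve as effectors of FGF receptors in development, had the largest FGF8 differences among the 10 genes at day 0. Coordinates are those of GENCODE M39 on GRCm39. Etv4 (chromosome 11, 101660568 to 101676197, minus strand) stood at 82.3 normalized counts in untreated and at 1763 in FGF8-treated preadipocytes, 21.4-fold higher (log2 fold change 4.41, interval 4.04 to 4.83). Only 28 of the 12657 genes detected at day 0 had a higher log2 fold change. Etv5 (chromosome 16, 22200052 to 22259662, minus strand) stood at 288 and 2518, 8.75-fold higher (3.12, 2.92 to 3.35). Etv1 (chromosome 12, 38828851 to 38920483, plus strand) stood at 70.5 and 451, 6.39-fold higher (2.66, 2.24 to 3.14).

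The 3 genes parted during differentiation. At day 3, Etv4 was down to 23.2 normalized counts in the FGF8-pretreated cells, 76.1-fold below the FGF8 library of day 0, and now lay under the 48.4 of untreated cells (log2 fold change -1.03, -1.78 to -0.35). Etv5 was at 333 in untreated and 463 in pretreated cells at day 3 (0.47, 0.26 to 0.68). Etv1 was at 38.2 and 133, still 3.49-fold higher (1.78, 1.24 to 2.41), and only 52 of 12892 genes had a higher log2 fold change at that day. Etv1 was thus the only member still at least 2-fold higher at day 3. At day 9 its interval included 0, with levels of 19.9 and 23.6 (0.24, -0.55 to 1.05). Etv4 was near the limit of detection at day 9, with 25 and 10 counts, or 17.7 and 8.13 normalized counts. Etv5, at 571 and 676 (0.24, 0.10 to 0.38), was the only PEA3 gene whose untreated level at day 9 was above that at day 0.

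**Figure D1:**
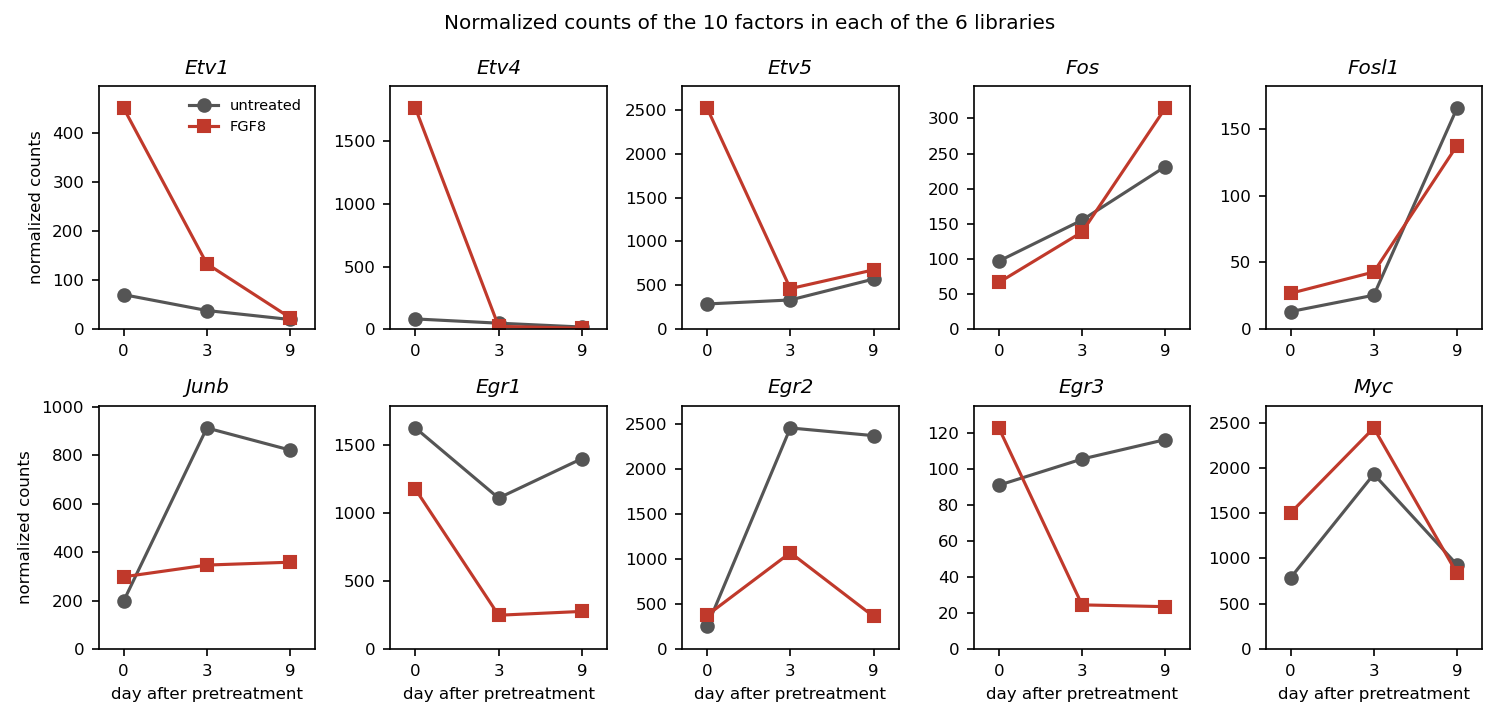
Normalized counts (vertical axis, linear, its own scale in each panel) of the 10 factors against the day after the end of the pretreatment, with 1 point for each library, untreated cells as grey circles and FGF8-pretreated cells as red squares. The Etv4 and Etv5 points of FGF8-treated cells stand at 1763 and 2518 on day 0 and at 23.2 and 463 on day 3, while the Junb and Egr2 lines of untreated cells climb after day 0 above those of pretreated cells.

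The AP-1 members did not follow the PEA3 genes. Fos (chromosome 12, 85520658 to 85524047, plus strand), whose protein pairs with JUN proteins to form AP-1, had 96.9 normalized counts in untreated and 66.6 in FGF8-treated preadipocytes (log2 fold change -0.54, -1.10 to 0.0041). It was at 155 and 138 at day 3 (-0.17, -0.50 to 0.17) and at 231 and 315 at day 9 (0.44, 0.23 to 0.66). After 48 h of FGF8, the Fos estimate therefore lay below the untreated level, with a counting interval that just included 0. The level in both series was lowest at day 0 and highest at day 9.

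Fosl1 encodes FRA1, an AP-1 subunit that accumulates when ERK stays active. The gene (chromosome 19, 5497575 to 5505974, plus strand) had only 9 counts in untreated and 21 in FGF8-treated preadipocytes, or 13.2 and 26.9 normalized counts, and the interval of the log2 fold change (0.97, -0.16 to 2.33) included 0. At day 3 it was at 25.5 and 42.8 (0.73, 0.0013 to 1.56), and at day 9 at 165 and 137 (-0.27, -0.56 to 0.024). Its main movement was with time, 12.5-fold higher at day 9 than at day 0 in untreated cells and 5.11-fold in pretreated cells. Ccdc85b overlaps Fosl1 on the opposite strand and went from 120 to 791 normalized counts over the same days in untreated cells. The strand setting of the counting is not given in the sources used here, so reads of the pair may be shared.

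Junb (chromosome 8, 85701113 to 85705359, minus strand), an AP-1 subunit that often opposes JUN, changed direction between days. It had 198 normalized counts in untreated and 298 in FGF8-treated preadipocytes (log2 fold change 0.59, 0.28 to 0.91). At day 3 it had 913 in untreated and 347 in pretreated cells (-1.39, -1.56 to -1.23), and at day 9 821 and 359 (-1.19, -1.36 to -1.04). In untreated cells Junb was 4.60-fold higher at day 3 than at day 0. In pretreated cells the same step was 1.16-fold, with a counting interval of -0.010 to 0.45 on the log2 scale. Prdx2 overlaps Junb on the opposite strand. It had 6536 normalized counts in untreated and 5790 in FGF8-treated cells at day 0. At day 3 it had 2531 and 3087, and at day 9 3238 and 3283. Whether reads of this pair are shared was not tested.

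The EGR genes encode zinc-finger factors that bind GC-rich sites, and all 3 were lower in FGF8-pretreated cells during differentiation. Egr1 (chromosome 18, 34992876 to 34998049, plus strand) was the only one already lower at day 0, at 1623 in untreated and 1174 in FGF8-treated preadipocytes (log2 fold change -0.47, -0.60 to -0.34). It was at 1109 and 248 at day 3, 4.46-fold lower (-2.15, -2.34 to -1.98), and at 1398 and 276 at day 9, 5.06-fold lower (-2.33, -2.51 to -2.17). The untreated level of Egr1 stayed between 1109 and 1623, so the gap came with the step from day 0 to day 3 in pretreated cells, over which the level was 4.72-fold lower.

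Egr2, also called Krox20 and known to promote adipogenesis early after induction, lies on chromosome 10 (67371305 to 67378018, plus strand). It had 254 normalized counts in untreated and 376 in FGF8-treated preadipocytes (log2 fold change 0.56, 0.29 to 0.85). At day 3 it stood at 2461 and 1073, 2.29-fold lower after FGF8 (-1.20, -1.30 to -1.10), and at day 9 at 2376 and 363, 6.54-fold lower (-2.71, -2.85 to -2.57). Untreated cells held Egr2 at 9.69 and 9.35 times the day 0 level on days 3 and 9. In pretreated cells it was 2.85-fold higher at day 3 and then 2.95-fold lower from day 3 to day 9, and at day 9 its log2 difference from day 0 was -0.051 (-0.27 to 0.17). Egr3 (chromosome 14, 70314350 to 70320063, plus strand), a close relative with lower counts, was at 91.1 and 123 at day 0 (0.43, -0.043 to 0.92), at 106 and 24.6 at day 3 (-2.06, -2.72 to -1.52) and at 116 and 23.6 at day 9 (-2.26, -2.93 to -1.73). As for Egr1, its untreated level differed little between days, and none of the 3 counting intervals between untreated days excluded 0.

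Myc (chromosome 15, 61857227 to 61862223, plus strand), the growth regulator that ERK acts on both at the transcript and by stabilizing the protein, had 786 normalized counts in untreated and 1503 in FGF8-treated preadipocytes, 1.91-fold higher (log2 fold change 0.93, 0.79 to 1.09). It was at 1929 and 2440 at day 3 (0.34, 0.25 to 0.43) and at 931 and 834 at day 9 (-0.16, -0.28 to -0.039). Both series peaked at day 3. The FGF8 difference was smaller at day 3 than at day 0 and below 0 at day 9, where it was only 1.12-fold.

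**Figure D2:**
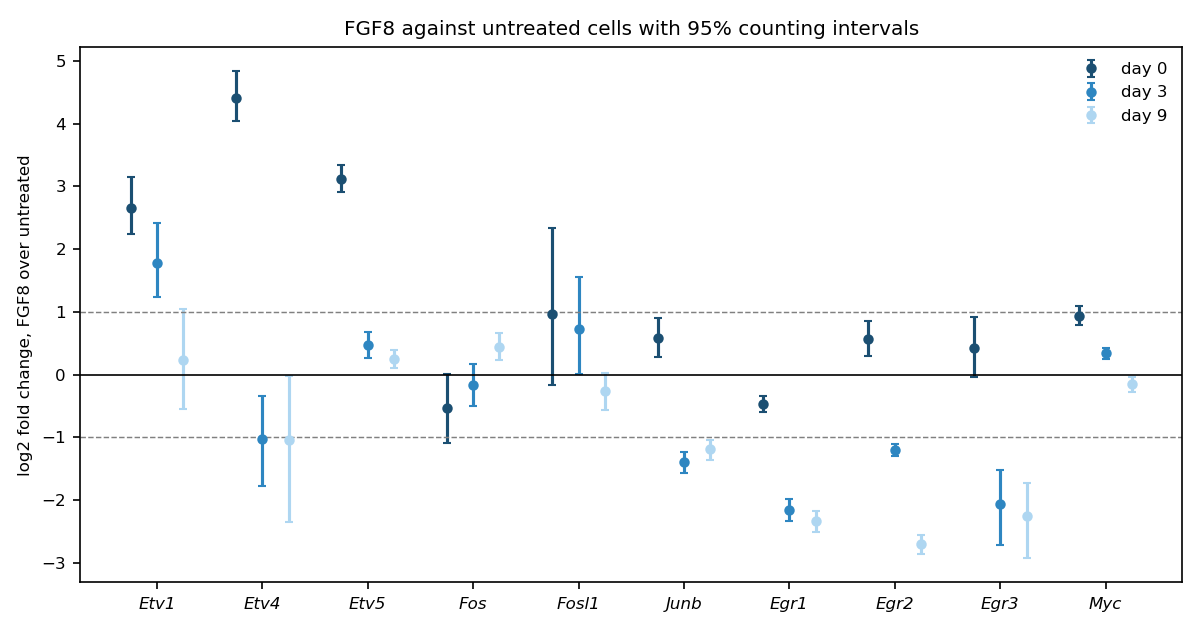
Log2 fold change of FGF8-pretreated over untreated cells (vertical axis) for each of the 10 factors, 1 point for each day, with 95% counting intervals as bars and dashed lines at 2-fold either way. The 3 PEA3 genes lie above the upper dashed line at day 0, and Junb, Egr1, Egr2 and Egr3 lie below the lower one at days 3 and 9.

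Genes were called at 2-fold where the libraries compared averaged 20 or more normalized counts. By this rule 3 of the 10 factors were higher at day 0 (Etv1, Etv4 and Etv5) and 0 were lower, where 7.27% of all 12657 detected genes were higher and 10.8% lower. At day 3, 1 factor was higher (Etv1) and 5 were lower (Etv4, Junb, Egr1, Egr2 and Egr3), against 3.80% and 12.1% of 12892 genes. Etv4 lay just past the limit and was not called with a pseudocount of 5, which put its log2 fold change at -0.92, or with a mean of at least 100. At day 9, 0 of the 9 detected factors were higher and 4 were lower (Junb, Egr1, Egr2 and Egr3), against 1.12% and 8.74% of 13070 genes. The median log2 fold change of the factors was 0.76, -0.60 and -0.27 on the 3 days, beside 0.054, 0.081 and 0.083 over all detected genes.

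The preadipocyte markers moved the same way as the EGR genes and Junb at days 3 and 9. They summed to 189817 normalized counts in untreated and 62562 in pretreated cells at day 3 and to 193450 and 77302 at day 9. On both days 6 of 6 were at least 2-fold lower, against 12.1% and 8.74% of all detected genes. At day 0, where of these factors only Egr1 was lower, the markers were also lower, with sums of 191587 and 40940. There 5 of 6 genes were at least 2-fold lower, against 10.8% of all detected genes. Such sums are weighted to abundant genes and do not show the course of each marker. In the edgeR fit of time given below, 4 of the 6 markers were called lower and 1 higher from day 0 to day 3. The same counts were called from day 0 to day 9. The adipocyte markers summed to 218286 and 433090 at day 3, and to 489694 and 571361 at day 9. In bulk RNA, fewer cells of a type and less of a transcript in each cell cannot be told apart, and the part of these markers in the result was not tested. Among endothelial markers, Kdr and Tek were lower after FGF8 on all 3 days (summed with Pecam1 and Cdh5, 1620 against 71.7 normalized counts at day 0), while Pecam1 and Cdh5 had at most 17 counts in any library.

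edgeR's quasi-likelihood test was used to ask whether FGF8 had an effect common to all days. Day entered as a block and the days served as repeats, so variation of the response over time adds to the error. The test called 0 of the 10 factors, where 0.0206% of 14569 genes were called higher and 1.25% lower. At an unadjusted p under 0.05 there were 2 factors, Egr1 and Etv1. Egr1 had a log2 fold change of -1.68 (SE 0.418), with an adjusted p = 0.124 in edgeR (Benjamini-Hochberg), and was lower in 3 of 3 pairs. Etv1 had 1.62 (SE 0.525), with an adjusted p = 0.169 in edgeR, and was higher in 3 of 3 pairs. In the pair of day 9 it had 28 and 29 counts, and the interval (-0.55 to 1.05) included 0. DESeq2's Wald test called the same 2 genes, with adjusted p-values of 0.00102 for Egr1 and 0.0307 for Etv1.

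With day 0 left out, the same edgeR fit compared the pairs of days 3 and 9 alone and called 4 factors, all lower, where 3.96% of 14367 genes were higher and 11.6% lower. Egr1 fell by 2.28 on the log2 scale (SE 0.164, edgeR adjusted p = 0.000728), Egr3 by 2.23 (SE 0.340, adjusted p = 0.00525), Egr2 by 1.97 (SE 0.306, adjusted p = 0.00560) and Junb by 1.32 (SE 0.176, adjusted p = 0.00278). Each was lower in both pairs. This fit has fewer residual degrees of freedom than the 2 of the full fit, and its p-values rest on 2 pairs without replicates. The fits that left out day 3 or day 9 instead called 0 factors. Over all fits tried, the adjusted p of Egr1 ran from 0.000728 to 1.00, since without a block for day no gene was called.

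The same model gave the change with time common to both treatments, with treatment as the block. From day 0 to day 3, Myc rose by 1.03 on the log2 scale (SE 0.280, edgeR adjusted p = 0.0358), where 26.2% of all genes were called higher and 19.8% lower, and the adjusted p was between 0.0132 and 0.0707 in other fits. From day 0 to day 9, 29.2% of genes were called higher and 24.8% lower. Of the 10 factors 2 were called higher and 2 lower, so calls were no more frequent among them than among all genes. Here Fosl1 rose by 3.01 (SE 0.483, edgeR adjusted p = 0.00761) and Fos by 1.79 (SE 0.366, adjusted p = 0.0141). Etv4 fell by 5.63 (SE 1.74, edgeR adjusted p = 0.0446) and Etv1 fell by 3.02 (SE 0.666, adjusted p = 0.0173). These fitted values lie between unequal changes in the treatments. The log2 difference of Etv4 was -2.15 in untreated and -7.59 in FGF8-pretreated cells, and that of Etv1 -1.78 and -4.20. Between day 3 and day 9 edgeR called 0 factors, with 3 at an unadjusted p under 0.05 (Etv1, Fosl1 and Myc), where 0.0618% of genes were called higher and 0.00686% lower. DESeq2 called Fosl1 higher and Myc lower over that step. Junb, Egr2 and Egr3 were not called by edgeR for any pair of days; a course that differs between the treatments counts as error in this fit.

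Levels can be compared between genes only per length, and were set per kilobase of annotated exon. By this measure the 3 PEA3 genes together went from 69.3 in untreated to 923 normalized counts per kb in FGF8-treated preadipocytes, and lay between 62.4 and 94.4 in the other 4 libraries. Etv4 made up 37.4% of this sum in untreated and 60.2% in FGF8-treated preadipocytes, while Etv5 made up 91.6% and 95.5% at day 9. Etv1 annotates 13989 bases of exon over all its isoforms, so its per-kb level is a low estimate where one short isoform is made.

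Within the FOS family, Fosl2 (FRA2) was the most abundant per kb in all 6 libraries, with 92.3% of the family in untreated and 88.5% in FGF8-treated preadipocytes and between 53.8% and 73.8% later. Fos made up 5.72% of the family at day 0 and 18.1% at day 9 in untreated cells. Junb held 5.86% to 20.9% of the JUN family, in which Jund led in 5 libraries and Jun, at 44.8%, in FGF8-treated preadipocytes. Among the EGR genes, Egr1 led at day 0, with 79.4% in untreated and 65.7% in FGF8-treated cells, and Egr2 led in all later libraries, with 61.6% to 83.9%. The EGR sum was 455, 992 and 1034 normalized counts per kb on the 3 days in untreated cells and 398, 376 and 173 after FGF8, and Egr4 had at most 2 counts in a library. Myc held 92.7% to 97.7% of the MYC family beside Mycl and Mycn.

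**Figure D3:**
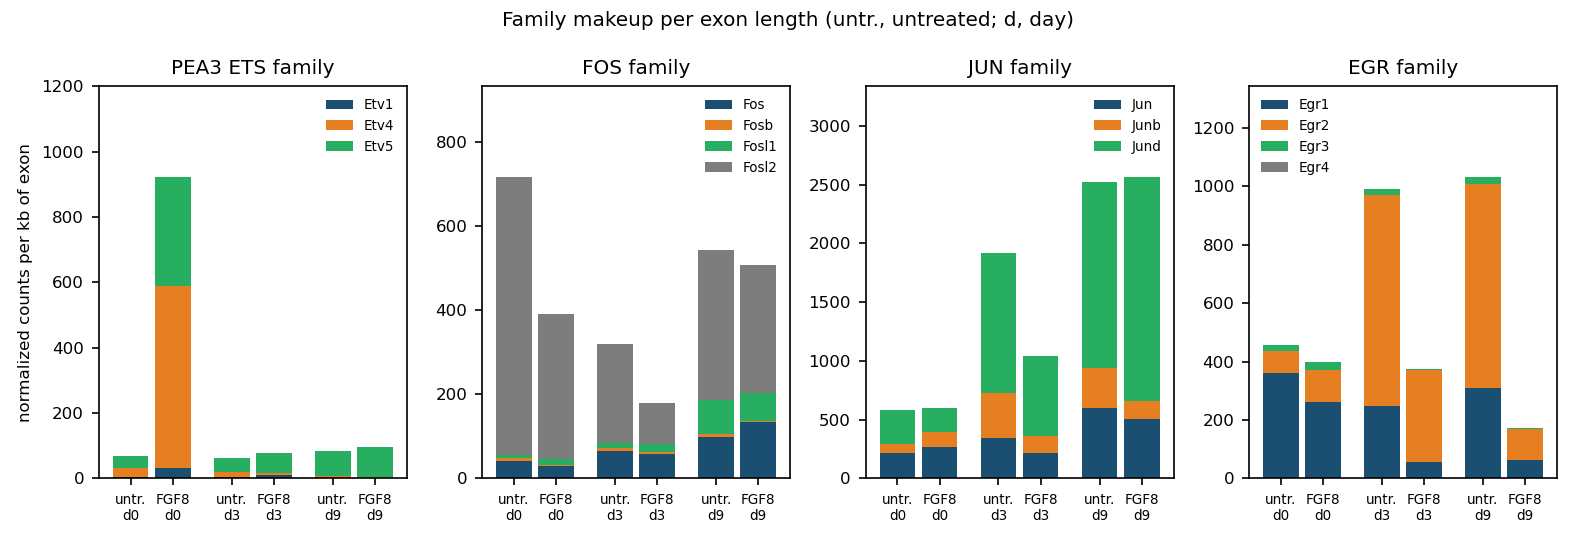
Stacked bars of normalized counts per kb of exon (vertical axis, from 0, its own scale in each panel) for the PEA3, FOS, JUN and EGR families in each of the 6 libraries, with colors for the genes. The PEA3 bar reaches 923 in FGF8-treated cells at day 0 only, and the EGR bars of untreated cells, mostly Egr2 at days 3 and 9, reach 992 and 1034 against 376 and 173 after FGF8.

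The promoters of Egr2, Junb, Fos and Etv1 are shown because Egr2 and Junb were both higher than untreated cells at day 0 and lower afterwards, Fos is the classical SRF target without this course, and Etv1 was the only member at least 2-fold higher at both day 0 and day 3. RefSeq promoter windows (250 bases before to 50 after a start, GRCm38.p6) were matched for 5 of the 10 genes: Etv1 (2 windows), Etv5 (2), Fos (1), Junb (1) and Egr2 (5). Bases -110 to -11 before the start are printed 5′ to 3′ on the gene's strand, with the motif matches in capitals: CArG boxes, the site of SRF, in Egr2 and the TATA box in Fos. The Egr2 starts printed were chosen because they hold a CArG box, and upstream and downstream refer to their order only. Another Egr2 window, without a CArG box, lies farther upstream.
Egr2, upstream start, chr10:67537456-67537555 (+): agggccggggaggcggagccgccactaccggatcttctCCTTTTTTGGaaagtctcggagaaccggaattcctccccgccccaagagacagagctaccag
Egr2, downstream start, chr10:67537759-67537858 (+): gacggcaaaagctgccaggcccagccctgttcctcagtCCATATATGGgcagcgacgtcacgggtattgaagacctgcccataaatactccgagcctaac
Junb, chr8:84978759-84978858 (-): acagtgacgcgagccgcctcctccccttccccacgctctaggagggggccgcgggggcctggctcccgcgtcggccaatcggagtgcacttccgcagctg
Fos, chr12:85473780-85473879 (+): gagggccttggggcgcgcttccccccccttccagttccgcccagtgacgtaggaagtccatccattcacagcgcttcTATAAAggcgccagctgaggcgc
Etv1, chr12:38779972-38780071 (+): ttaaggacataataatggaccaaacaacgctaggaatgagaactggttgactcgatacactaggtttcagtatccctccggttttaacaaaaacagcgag

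Searched on both strands, the CArG box was found in 4 of the 5 Egr2 windows, as CCTTTTTTGG at -72 to -63 of one start and as CCATATATGG in 3 windows that overlap each other, and in no window of the other 4 genes. It occurs in 535 of 32851 mouse promoter windows of the same length (1.63%). The windows reach 250 bases before a start, so sites farther upstream, those of Fos included, were not searched. The TATA motif TATAAA, in 13.6% of all windows, lay at -33 to -28 in Fos, and was also matched in 1 window of Etv1 and just past the start in Junb. The E-box CACGTG, in 7.15% of all windows, was matched in 1 Egr2 window. The ETS motif CCGGAAG (8.86% of all windows), the AP-1 motif TGANTCA (7.81%), the CRE TGACGTCA (1.79%) and the EGR motif GCGNGGGCG (5.55%) were not matched in these windows. Of these motifs only TATAAA can lie inside another, the CArG box. A match describes letters and not binding.

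Genes of the same pathway were grouped in 9 lists, with stress and proliferation genes beside them, and their counts and medians are given without a test. Of all detected genes, 7.27% were at least 2-fold higher and 10.8% lower at day 0. The shares were 3.80% and 12.1% at day 3, and 1.12% and 8.74% at day 9. Of 10 ERK feedback inhibitors, 6 were higher by 2-fold or more and 1 was lower at day 0, with a median log2 fold change of 1.25. Like Etv4, the feedback genes Spry4 (60.2 against 1060 normalized counts, log2 fold change 4.12), Dusp6, the cytoplasmic ERK phosphatase (150 against 2261, 3.91), and Dusp4, a nuclear one (96.9 against 1045, 3.42), were high in FGF8-treated preadipocytes. At day 3 their log2 fold changes were 0.50, 0.26 and 0.87, and at day 9 0.060, -0.85 and -0.053. Il17rd, which encodes the FGF antagonist SEF, was lower after FGF8 on all 3 days and passed edgeR's test of a common effect, where it fell by 1.71 on the log2 scale (SE 0.189, adjusted p = 0.0451).

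Few genes of the cascade from receptor to ERK passed the 2-fold rule. At day 0 their share was below that of all detected genes, of which 7.27% were higher and 10.8% lower. Of 22 genes of the RAS-ERK cascade, 1 was at least 2-fold higher at day 0 (Rps6ka2, an RSK kinase, 253 against 932 normalized counts) and 1 lower (Gab1, a docking protein, 1000.3 against 476), and 0 passed the rule at day 3 or day 9. The receptor gene Fgfr1, part of this list, did not reach 2-fold but was lower after FGF8 at day 3. It had 8807 against 5260 normalized counts there (log2 fold change -0.74, -0.79 to -0.70), and at day 9 4510 against 3188 (-0.50, -0.56 to -0.44). Of 13 detected ETS factors outside the PEA3 group, 0 passed the rule at day 0. At day 3, 3 of them were lower (Ets2, Elk3 and Fli1, with log2 fold changes of -1.19, -1.25 and -1.72), and at day 9 1 was higher, the epithelial factor Elf3, with 271 against 637 normalized counts. Among all detected genes, 12.1% were lower at day 3 and 1.12% higher at day 9.

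Among 9 AP-1 partners, the stress-responsive factor Atf3 had 47.0 normalized counts in untreated and 552 in FGF8-treated preadipocytes (log2 fold change 3.53), and the small MAF genes Maff and Mafg were 1.14 and 1.07 higher on the log2 scale. Fosb was lower at day 0 (-1.08) and day 9 (-1.10), and Fosl2 at day 3 (-1.30). Of 15 detected AP-1 target genes, 6 were at least 2-fold higher and 2 lower at day 0. They included the EGF receptor ligands Areg (4 against 564 counts) and Hbegf (165 against 1211 normalized counts) and the cyclin gene Ccnd1 (849 against 4344) as higher, and the matrix proteases Mmp9 (442 against 44.8) and Mmp3 (1670 against 467) as lower. At day 3, 7 of 10 detected were lower and 0 higher, and at day 9 4 of 9 were lower and 0 higher. Among all detected genes, 12.1% were lower at day 3 and 8.74% at day 9. Timp1, an inhibitor of matrix proteases, had 4695 against 845 normalized counts at day 3 and 5987 against 585 at day 9.

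Other immediate-early genes did not share one direction at day 0, where 7.27% of all detected genes were higher and 10.8% lower. Of 21 detected, 5 were at least 2-fold higher, among them Plk3, Nr4a2 and Ier3 (log2 fold changes 1.86, 1.74 and 1.63), and 6 were lower, among them the YAP and SRF target Ccn1, the mRNA decay factor gene Zfp36l1 and Klf4 (-2.42, -1.92 and -1.77). At day 3, 9 of 22 were lower and 0 higher, against 12.1% and 3.80% of all detected genes. Ccn2, Gem and Nr4a3 were lowest (-2.63, -2.58 and -2.39). At day 9, 5 of 21 were lower (Gem, Klf4, Phlda1, Ccn2 and Nr4a1) and 0 higher, against 8.74% and 1.12% of all detected genes. Klf4, an early factor of adipogenesis that acts on Cebpb with Egr2, was lower in 3 of 3 pairs and passed edgeR's test of a common effect, where it fell by 2.01 (SE 0.198, adjusted p = 0.0429). The EGR corepressor gene Nab2, itself an EGR target, had log2 fold changes of 0.21, -0.89 and -0.54 on the 3 days, and Nab1 stayed between -0.019 and 0.100. Wt1, whose protein binds EGR-like sites, was lower at day 0 (86.7 against 30.7 normalized counts).

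Of 22 MYC target genes, 22 had a log2 fold change above 0 in FGF8-treated preadipocytes, where 6849 of all 12657 genes did. At least 2-fold higher were 9 of them and 0 were lower, with a median of 0.91, where 7.27% of all detected genes were higher and 10.8% lower. Like all lists here, this list was chosen with earlier results of these data known, so its counts are a description. The 3 with the largest differences were the mitochondrial serine enzyme gene Shmt2 (1316 against 9453 normalized counts), the polyamine enzyme gene Odc1 (583 against 2119) and the nucleolar gene Wdr12 (511 against 1183). The median was 0.46 at day 3, with 2 of 22 higher (Tfrc and Ldha), and 0.24 at day 9, with 0 of 22 past the rule either way. In the MYC network, the MAX partners Mxd3 and Mxd4 were lower at day 0, Mlxipl was higher at day 3 (3952 against 8067 normalized counts), and 0 of 11 passed the rule at day 9. The 12 proliferation genes had medians of 0.15, 0.58 and 0.34, with 0 of 12 past the rule on each day. Of 9 stress genes, 2 were higher and 3 lower at day 0, 1 was lower at day 3 (Hspa1b) and 2 were lower at day 9 (Hspa1a and Hspa1b).

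**Figure D4:**
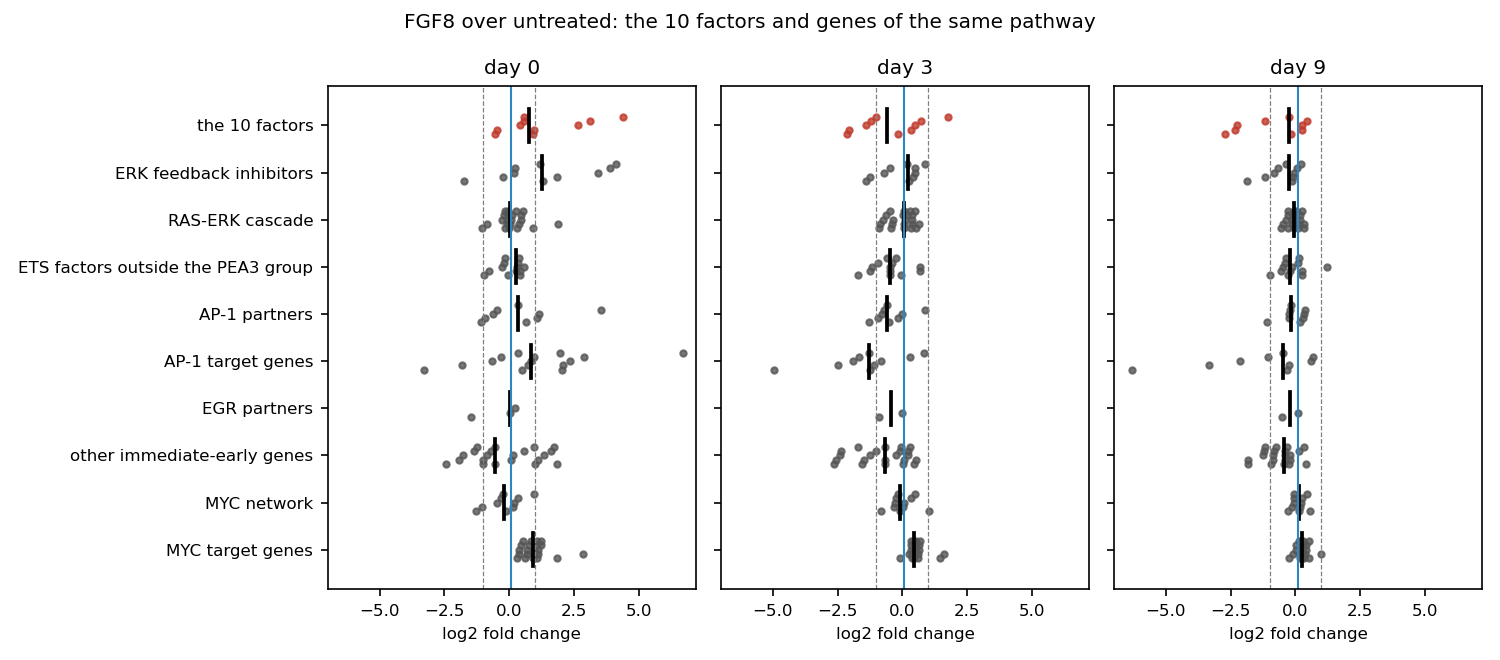
Log2 fold changes of FGF8-pretreated over untreated cells (horizontal axis) at each day for the 10 factors (red) and for genes of 9 pathway lists (grey), each point a detected gene, with the list median as a black bar, the median of all detected genes as a blue line and dashed lines at 2-fold. The MYC targets all lie right of 0 at day 0, and the lists of AP-1 targets and other immediate-early genes have medians of -1.28 and -0.68 at day 3.

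The genes with the most similar course over the 6 libraries were found by the root-mean-square difference of log2 values after centering each gene on its own mean, among 11380 genes that averaged 100 or more normalized counts over the libraries. For Etv4 these were Ndst3, Prkg2 and Sema7a, with differences of 0.434, 0.440 and 0.580. Prkg2 had 466 normalized counts in untreated and 5688 in FGF8-treated preadipocytes, and 79.3 in pretreated cells at day 3. The gene closest to Etv5 was Mthfd1l (0.243) and that closest to Etv1 was Enox1 (0.590). Osmr and Reck were among the 3 closest genes of both Egr1 and Egr3, with differences of 0.210 to 0.293, and Fbln2, at 0.196, was the closest to Egr1. Ctsh was the closest to Egr2 (0.367), Pnrc1 to Fos (0.136), Pkm to Fosl1 (0.178) and Mthfd1 to Myc (0.201). With 6 values for each gene, likeness of this kind is common among so many genes and is given as a description.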

How the data were processed

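RNA was extracted with a Promega kit, and libraries made with an Illumina stranded mRNA kit were sequenced as paired ends. The authors trimmed the reads (Trim Galore), aligned them to GRCm39 (HISAT2) and counted them per gene with featureCounts. The deposited counts are whole numbers without normalization. Tool versions, the annotation and the strand setting are not given in the sources used here, and reads of overlapping or near-identical genes may be split or shared. The growth text in the labels describes primary white cells, whereas titles and methods describe the brown line used here.

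From the counts, DESeq2 (1.42.0) size factors, log2(normalized count + 1) differences and exact binomial counting intervals (scipy 1.17.1, pandas 2.3.3, Python 3.11.15) were computed. A gene was counted as higher or lower at 2-fold where the libraries compared averaged 20 or more normalized counts. edgeR (4.0.16, R 4.3.3, with TMM, filterByExpr, quasi-likelihood, Benjamini-Hochberg adjustment over all genes, adjusted p under 0.05) was fitted to day and treatment. With all 6 libraries this left 2 residual degrees of freedom, and fewer where a day was left out. Where nothing marks separate cultures as repeats, these p-values rest on the spread between days or treatments. On simulated counts, 200 of 200 genes changed 4-fold were called for FGF8 with 6 false calls among 14805 genes, and 200 of 200 between days with 7 among 14451. The 2-fold rule at day 0 passed 200 of 200 with 79 others among 12674. The simulation used a fixed spread that was not estimated from these data. Each simulated FGF8 change was the same on every day and was placed in well-detected genes. These rates therefore do not give the power for factors whose response differed between days.

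The 10 factors and all gene lists were chosen with earlier results of these data known. The named genes are the factors and their closest relatives, the genes of each list past 2-fold or with up to the 3 highest and 3 lowest log2 fold changes of a day, Dusp6 and Spry4, and for each factor the 3 genes with the smallest root-mean-square difference. The genes overlapping a factor were named for their position, and Fgfr1 as a receptor of FGF. Alternatives were TMM, total counts or size factors of the pair, pseudocounts of 0.5 and 5, no filter or a mean of at least 100, thresholds of 1.5-fold and 4-fold, the Wald test of DESeq2, no block and leaving out each day. The result of 1 gene is not reported here.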

Additional observations from a re-analysis of the deposited data

Results flagged for a closer look

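4 results stood out because the FGF8 difference had opposite directions on different days, each with a counting interval that excluded 0. The difference between days was not tested, since each day holds 1 library per treatment. At day 0 the log2 fold change of Etv4 was 4.41, against -1.03 at day 3 and, with 25 and 10 counts behind it, -1.04 at day 9. Junb had 0.59, -1.39 and -1.19 on these days. For Egr2 the values were 0.56, -1.20 and -2.71. Myc had 0.93 and 0.34 at days 0 and 3 and -0.16 at day 9, the smallest of these reversals.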

How the results depend on the processing

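No paired analysis by replicate number was possible because the labels give 1 library per condition and no such numbers, and the treatments were paired by day alone, through the day block. Of the 30 log2 fold changes of the factors, 0 changed sign over 3 other normalizations and 2 other pseudocounts, and normalization moved them by at most 0.108, at day 3 with total counts, which also moved the median of all genes from 0.081 to -0.026. At day 0, 6 factors were higher with a 1.5-fold rule and 4 with total counts, where Fosl1 reached 1.03. At day 3, the counts were 0 higher and 3 lower with a mean of at least 100, 2 higher with a 1.5-fold rule, 0 higher and 2 lower with a 4-fold rule, and 4 lower with a pseudocount of 5, where Etv4 (-0.92) was lost. At day 9, 5 factors were lower without a filter, where Etv4 was added, and 3 with a mean of at least 100 or a 4-fold rule. With TMM, 2 genes of the pathway lists were higher at day 9 in place of 1.

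The test of a common FGF8 effect depended most on the settings. In place of 3 genes higher and 182 lower, it gave 1 and 93 with DESeq2 size factors, 483 and 1220 with DESeq2's Wald test, 13 and 406 without a filter, 569 and 1661 without day 0, and 0 and 0 without a day block, without day 3 or without day 9, where 575, 1510 and 1868 genes had an unadjusted p under 0.05 in edgeR. Among the factors, the 0 calls became 1 higher and 1 lower with DESeq2, and 4 lower without day 0. From day 0 to day 3, 1671 genes were lower without a treatment block in place of 2884, and the 1 factor called higher became 2 with DESeq2 or without a filter, where Egr2 joined Myc, and 0 without the block. DESeq2 also called 2 factors lower there (Etv4 and Egr1). From day 0 to day 9, 2383 genes were lower without the block in place of 3614. From day 3 to day 9, 9 genes higher and 1 lower became 860 and 474 with DESeq2 and 199 and 69 without a filter, 2 were higher without the block, and DESeq2 called 1 factor higher and 1 lower. Without day 0 fewer libraries enter the fit, and otherwise the cause was not tested. Depth limits Fosl1 at day 0 and Etv4 at day 9, with 9 to 25 counts in a library.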
